A study of Rattus norvegicus with 8 samples.

Results

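Axon degeneration and survival genes were followed through the somatic and axonal RNA of rat sensory neurons in culture, under a control hairpin or a hairpin against Pum2. The set held 10 genes listed by symbol, of 17381 genes in all: Sarm1, Nmnat1, Nmnat2, Map3k12, Map3k13, Mycbp2, Bcl2l2, Bcl2l1, Mapk8 and Mapk10. All 10 were found, with 15 RefSeq transcripts between them. Dorsal root ganglion neurons of rats at embryonic day 15 had been cultured for 7 days in microfluidic chambers, whose narrow channels keep axons apart from cell bodies. A lentivirus carrying a control hairpin (shControl) or a hairpin against Pum2 (shPum2), an RNA-binding protein of the Pumilio family, was given when the cells were plated. The 4 groups were somatic shControl, somatic shPum2, axonal shControl and axonal shPum2, with 2 libraries in each. All 4 groups thus had a lentivirus with a hairpin, and none was left without virus. The labels name no rat strain and do not say whether replicates were separate cultures, so p-values measure the spread between these libraries, which may be technical. By the labels, the somatic samples held cell bodies together with axons, and their libraries came from a standard kit where the axonal ones came from an ultra-low input kit. Compartment and kit therefore cannot be told apart in any axonal against somatic comparison.

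The products of these genes form the best-known pathways of axon loss. SARM1 is an enzyme that destroys NAD when it is activated, and NMNAT2 is a short-lived NAD-making enzyme that keeps it inactive and has to be supplied to the axon by transport. MYCBP2, also called PHR1, is a ubiquitin ligase that promotes the turnover of NMNAT2 and of the injury kinase DLK, the product of Map3k12. DLK and its relative LZK, the product of Map3k13, signal through JNK kinases, among them JNK1 (Mapk8) and the mainly neural JNK3 (Mapk10). Bcl2l1 and Bcl2l2 encode the anti-apoptotic proteins Bcl-xL and Bcl-w, and Bcl2l2 mRNA is known to be present in sensory axons, where neurotrophins raise its translation.

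Totals of estimated counts were 16725877 to 25821766 in the somatic libraries and 11641947 to 16131611 in the axonal libraries. Genes with at least 1 count numbered 14040 to 14265 per somatic library and 9542 to 10732 per axonal library. Pum2 itself had library-scaled counts (CPM) of 164 and 160 in somatic shControl against 38.2 and 36.5 in somatic shPum2, and fell by 2.13 on the log2 scale (adjusted p = 0.0247, edgeR quasi-likelihood test, Benjamini-Hochberg adjustment). That call was lost without either somatic shControl library. In axonal libraries Pum2 had 3.25 and 0.443 CPM under shControl against 1.46 and 7.07 CPM under shPum2, so the groups overlapped and the knockdown was not detectable there. The 11 neuronal markers summed to 29200 to 34300 CPM in somatic and 16700 to 32200 CPM in axonal libraries, with no marker at 0. The 8 fibroblast markers had sums of 3150 and 1550 CPM in the somatic shControl libraries, 8380 and 1550 CPM in somatic shPum2, and 69.2 to 730 CPM in axonal libraries, where Lum was at 0 in 1 library. The 8 macrophage and blood markers summed to 35.2 to 157 CPM in somatic and 82.3 to 1630 CPM in axonal libraries, where Itgam was at 0 in 3. The 8 Schwann and satellite cell markers in the files summed to 38.7 to 96.1 CPM in somatic and 70.2 to 193 CPM in axonal libraries, with Erbb3 at 0 in 3 axonal libraries. The 4 endothelial markers summed to at most 14.5 CPM in any library, and Cdh5 and Kdr were at 0 in all 4 axonal libraries. What part these cells had in any value below was not tested. In bulk RNA, fewer cells of a type and less RNA per cell cannot be told apart.

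In the cell bodies most of the set was well expressed, and its members differed widely in level. Levels are compared between genes in TPM, which scales by transcript length. Bcl2l1 was the most abundant member of somatic shControl, with 186 and 183 TPM. Nmnat2, the NAD-making survival factor, followed with 155 and 142 TPM. Mapk10 had 105 and 103 TPM there, and the other JNK gene, Mapk8, had 43.5 and 42.0 TPM. The neural JNK gene was thus above Mapk8 in both libraries. Map3k12 stood at 84.3 and 89.2 TPM, while the related kinase gene Map3k13 was the lowest member, at 5.02 and 5.43 TPM. Bcl2l2 had 73.3 and 77.1 TPM and Sarm1 had 74.2 and 69.8 TPM. These were the only neighbours in the somatic shControl order whose libraries overlapped. Mycbp2, a very long transcript of 15421 bases, had 35.0 and 33.0 TPM. Nmnat1, which encodes the nuclear relative of NMNAT2, had 8.79 and 8.62 TPM, far below Nmnat2. Against a median of 13.8 TPM over 14538 genes detected in somatic shControl, 8 members lay above and Nmnat1 and Map3k13 below, at the 42.4th and 35.8th percentile. The order of the means was the same in somatic shPum2, from Bcl2l1 at 177 and 184 TPM to Map3k13 at 4.89 and 6.02 TPM, and there no neighbours overlapped.

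Replicates of the somatic groups lay close together. The median difference between the 2 libraries of a group, in log2 of CPM plus 1, was 0.06 for the members in somatic shControl and 0.11 in somatic shPum2. Over the 9683 genes with a somatic mean of at least 5 CPM the same medians were 0.11 and 0.15. Sequencing depth left little counting error, since the least abundant member, Map3k13, had 164 to 309 counts in each somatic library.

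**Figure D1:**
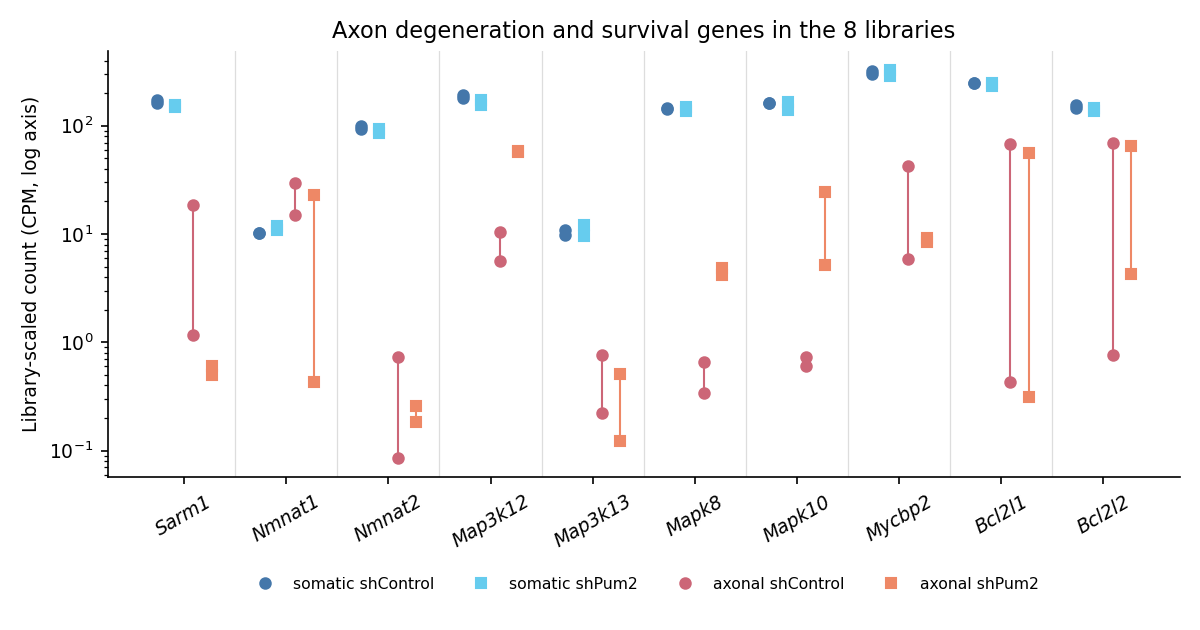
Library-scaled counts (CPM, log axis) of the 10 genes in the 8 libraries. Each point is 1 library and lines join the 2 libraries of a group. Somatic points lie close together in every gene, whereas many axonal pairs lie far apart. With shControl these include Sarm1, Nmnat2, Mycbp2, Bcl2l1 and Bcl2l2. With shPum2 they include Nmnat1, Map3k13, Mapk10, Bcl2l1 and Bcl2l2.

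The first comparison asked whether these RNAs differ in cell bodies when Pum2 is reduced. None of the 10 members passed the threshold of an adjusted p of 0.05, where 0.0081% of the 12348 genes tested passed, that is Pum2 alone. At an unadjusted p under 0.05 there were 0 members and 74 genes (0.599%), and DESeq2 called 2 genes and 0 members. That share is below the level of 0.05 itself, so the test was strict here. With the replicate number as a block, 705 genes had an unadjusted p under 0.05, and still 0 members passed the adjusted threshold. By the edgeR quasi-likelihood test with Benjamini-Hochberg adjustment, the adjusted p was 0.9997 for every member. The members' log2 differences had a median of -0.06, against 0.01 over all genes tested.

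The largest somatic difference belonged to Map3k12, the gene for DLK. It had 180 and 193 CPM with shControl, against 157 and 171 CPM with shPum2. Both shPum2 libraries were below both shControl libraries, and the log2 difference was -0.20 (SE 0.11, 95% interval -0.48 to 0.09). Sarm1 had 171 and 163 CPM with shControl, against 150 and 157 CPM with shPum2. Its groups did not overlap either, with a log2 difference of -0.13 (SE 0.09, 95% interval -0.35 to 0.09). Bcl2l2 stood at 147 and 157 CPM against 138 and 146 CPM, also without overlap, and its log2 difference was -0.11 (SE 0.10, 95% interval -0.36 to 0.14). Nmnat1 was the single member whose shPum2 libraries were both higher, with 10.3 and 10.2 CPM against 11.9 and 10.9 CPM and a log2 difference of 0.14 (95% interval -0.28 to 0.56). These made 4 of 10 members without overlap, where 24.5% of all genes tested had none.

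The other 6 members overlapped between the hairpins. Nmnat2 had 155 and 142 TPM with shControl, against 134 and 143 TPM with shPum2. Mapk8 was at 146 and 143 CPM against 137 and 148 CPM, and Mapk10 at 163 and 162 CPM against 141 and 166 CPM. For both JNK genes 1 shPum2 library was below and the other above the shControl libraries. Mycbp2 was at 317 and 303 CPM against 326 and 288 CPM. Bcl2l1 was at 246 and 246 CPM against 234 and 248 CPM, and Map3k13 at 9.81 and 10.8 CPM against 9.60 and 12.0 CPM. The widest interval over the 10 members was that of Map3k13, -0.50 to 0.62 on the log2 scale, so larger somatic differences lay outside all of their intervals. In somatic shPum2, replicate 1 had the highest fibroblast sum (8380 CPM), and it was also the lower of the pair for 8 of the 10 members and the higher for Mycbp2 and Nmnat1. The part of that library's makeup in these values was not tested.

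**Figure D2:**
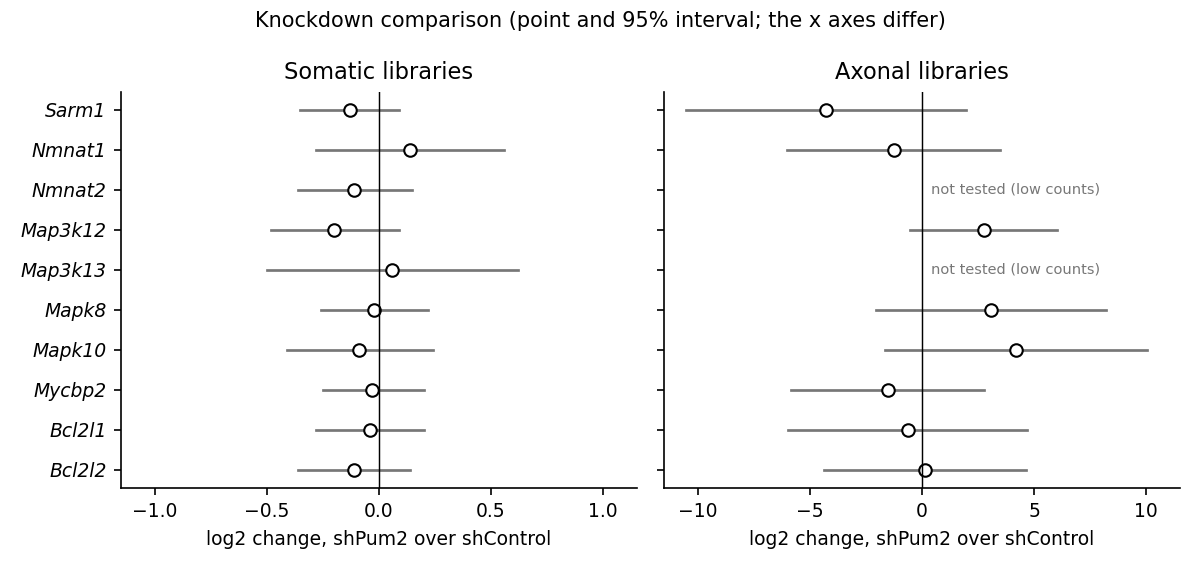
Log2 change of shPum2 over shControl for each gene in somatic libraries (left) and axonal libraries (right), as a point with its 95% interval. The x axes differ in range. No gene passed an adjusted p of 0.05, every interval includes 0, and the axonal intervals are many times wider than the somatic ones.

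In axonal RNA all 10 members had at least 1 count in each of the 4 libraries. The same was true of 75.9% of the 9683 genes with a somatic mean of at least 5 CPM. Levels were low and uneven. Map3k12 and Nmnat1 reached 10 CPM in 3 of the 4 axonal libraries, Bcl2l1 and Bcl2l2 in 2, and Sarm1, Mapk10 and Mycbp2 in 1. Nmnat2, Map3k13 and Mapk8 reached it in none, and no member reached it in all 4, where 24.7% of the 9683 genes did.

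The anti-apoptotic pair differed widely between axonal replicates. Bcl2l1 had 0.428 and 68.3 CPM in axonal shControl, or 5 and 924 counts, against 55.7 and 0.310 CPM in axonal shPum2. Bcl2l2 had 0.770 and 69.0 CPM in axonal shControl, against 4.29 and 65.6 CPM in axonal shPum2. For each gene 1 library of each hairpin was high and the other low, and the high shPum2 library was replicate 1 for Bcl2l1 but replicate 2 for Bcl2l2. The difference between replicates exceeded 2 on the log2 scale in 4 of 10 members in each axonal group, against 31.6% of the 9683 genes with shControl and 33.7% with shPum2. The members were Sarm1, Mycbp2, Bcl2l1 and Bcl2l2 with shControl, and Nmnat1, Bcl2l1, Bcl2l2 and Mapk10 with shPum2, where Mapk10 had 24.7 and 5.21 CPM.

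Per transcript length, Bcl2l1 (11.9 TPM on average), Nmnat1 (8.45 TPM) and Bcl2l2 (7.95 TPM) led the axonal shControl libraries. They were followed by Sarm1 at 1.82 TPM, Map3k12 at 1.64 TPM and Mycbp2 at 1.21 TPM. Nmnat2 (0.291 TPM), Mapk10 (0.193 TPM), Map3k13 (0.109 TPM) and Mapk8 (0.0680 TPM) were lowest, and every pair of neighbours in this order overlapped between libraries. In axonal shPum2, Map3k12 came first with 12.8 and 11.0 TPM. Bcl2l1, Bcl2l2, Nmnat1 and Mapk10 followed with means of 10.1, 7.08, 4.80 and 4.49 TPM. Mapk8 (0.589 TPM), Mycbp2 (0.429 TPM), Nmnat2 (0.155 TPM), Sarm1 (0.105 TPM) and Map3k13 (0.0756 TPM) made up the rest. Within that order, the steps from Mapk10 to Mapk8, from Mapk8 to Mycbp2 and from Mycbp2 to Nmnat2 were the ones without overlap.

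The second comparison set axonal against somatic RNA within each hairpin, in a fit of all 8 libraries. That fit gives both compartments 1 spread per gene. The common coefficient of variation was 23.5% in the somatic fit, 124.6% in the axonal fit and 91.1% in this one. Its p-values may thus be too small for genes that vary more in axons. Among shControl libraries the JNK genes Mapk8 and Mapk10, the survival factor Nmnat2 and the DLK gene Map3k12 were lower in axons than in cell bodies. These 4 of 10 members passed the threshold, all lower, where 27.9% of the 12339 genes tested passed, 18.5% lower and 9.41% higher. Among shPum2 libraries Nmnat2, Mapk8, Sarm1 and Mycbp2 were lower, again 4 of 10, where 24.7% of genes passed, 16.2% lower and 8.44% higher. No member was called higher in axons with either hairpin. Median log2 differences of the members were -2.62 with shControl and -2.72 with shPum2, against -0.76 and -0.64 over all genes tested. The fit scaled libraries by TMM, a method that allows for differences in library composition. Scaling by total counts lowered the median of all genes by a further 1.58 with shControl and 1.39 with shPum2. Under it the share of higher genes among those called went from 33.7% to 14.4% with shControl and from 34.2% to 15.1% with shPum2, and 7 and 6 members were called, all lower. With DESeq2 size factors the same 4 members were called with shControl, and 3 with shPum2, where Mycbp2 lost its call (adjusted p = 0.0550, edgeR quasi-likelihood test, Benjamini-Hochberg adjustment).

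Nmnat2 was near the limit of detection in axonal RNA with either hairpin. It had 1 and 10 counts in the axonal shControl libraries and 3 in each of the axonal shPum2 libraries, against 1672 to 2403 counts in each somatic library. In CPM this was 0.0856 and 0.739 with shControl and 0.258 and 0.186 with shPum2. All 4 axonal libraries were below 1 CPM while no somatic library was below 86.4 CPM. The log2 difference was -6.28 with shControl (SE 1.20, adjusted p = 0.0189) and -7.13 with shPum2 (SE 1.26, adjusted p = 0.0172), by the edgeR quasi-likelihood test with Benjamini-Hochberg adjustment. Nmnat1 had the opposite sign. Its axonal shControl libraries, at 15.1 and 29.3 CPM, were both above the somatic ones at 10.3 and 10.2 CPM, but the log2 difference of 2.68 did not pass (SE 1.51, adjusted p = 0.227). Axonal shPum2 had 23.1 and 0.434 CPM of Nmnat1, on both sides of the somatic values, and a log2 difference of 1.26 (SE 1.44, adjusted p = 0.596).

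Sarm1 had 18.6 and 1.18 CPM in axonal shControl, or 217 and 16 counts, and 0.601 and 0.496 CPM in axonal shPum2, or 7 and 8 counts. All 4 values were far below the somatic range of 150 to 171 CPM. With shControl, where the axonal libraries disagreed, the log2 difference was -2.47 and did not pass (SE 1.17, adjusted p = 0.162). With shPum2 Sarm1 fell by 6.59 on the log2 scale (SE 1.44, adjusted p = 0.0216).

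Of the DLK and LZK kinase genes, Map3k12 was at 10.4 and 5.62 CPM in axonal shControl, against 180 and 193 CPM in somatic shControl. It fell by 2.95 on the log2 scale (SE 0.60, adjusted p = 0.0196). In axonal shPum2 it was at 57.6 and 58.3 CPM, the closest pair of axonal replicates in the set, against 157 and 171 CPM in somatic shPum2. There the log2 difference was 0.06 with TMM scaling (SE 0.55, adjusted p = 0.956) and -1.50 with scaling by total counts. Map3k13 had 0.770 and 0.222 CPM in axonal shControl, against 0.515 and 0.124 CPM in axonal shPum2, with 2 to 9 counts per library. Its log2 differences of -2.78 (adjusted p = 0.108) and -3.71 (adjusted p = 0.0615) did not pass. Map3k12 overlaps Pcbp2, an RNA-binding protein gene on the other strand, in the RefSeq table. Whether strand was used in counting is not given in the sources used here, so reads of these genes may be mixed. Pcbp2 had 279 and 279 CPM in axonal shControl, against 184 and 423 CPM in axonal shPum2. The part of Pcbp2 reads in the Map3k12 values was not tested.

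Of the JNK genes, Mapk8 had 4 and 9 counts in axonal shControl (0.342 and 0.665 CPM) and 49 and 78 counts in axonal shPum2 (4.21 and 4.84 CPM). Somatic libraries held 137 to 148 CPM. Mapk8 fell by 6.57 on the log2 scale with shControl (SE 0.84, adjusted p = 0.00646) and by 3.40 with shPum2 (SE 0.71, adjusted p = 0.0208). Mapk10 had 7 and 10 counts in axonal shControl (0.599 and 0.739 CPM) and 287 and 84 counts in axonal shPum2 (24.7 and 5.21 CPM), against 141 to 166 CPM in somatic libraries. It fell by 6.34 with shControl (SE 0.87, adjusted p = 0.00801), and its log2 difference of -2.03 with shPum2 did not pass (SE 0.71, adjusted p = 0.0843). For both genes every axonal library was below every somatic one.

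Mycbp2, the ubiquitin ligase gene, had 5.90 and 42.3 CPM in axonal shControl, and axonal shPum2 held 9.19 and 8.49 CPM, against 288 to 326 CPM in somatic libraries. All axonal values were lower, and the shControl replicates were far apart. The log2 difference with shControl, -2.13, did not pass (SE 0.86, adjusted p = 0.111), and with shPum2 Mycbp2 fell by 3.56 (SE 0.92, adjusted p = 0.0333). Neither anti-apoptotic gene passed. Bcl2l1 had log2 differences of -1.29 (SE 2.13, adjusted p = 0.691) and -1.91 (SE 2.17, adjusted p = 0.595), and Bcl2l2 of -0.58 (SE 1.81, adjusted p = 0.840) and -0.20 (SE 1.81, adjusted p = 0.955). In CPM, averaged over each group, axonal Bcl2l2 was 22.9% of the somatic level with shControl and 24.6% with shPum2, and axonal Bcl2l1 14.0% and 11.6%. In each case 1 of the 2 libraries supplied nearly all of the axonal mean. The RefSeq table lists 1 pseudogene of Bcl2l1 and 2 of Bcl2l2, so reads shared with those copies make these levels uncertain.

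**Figure D3:**
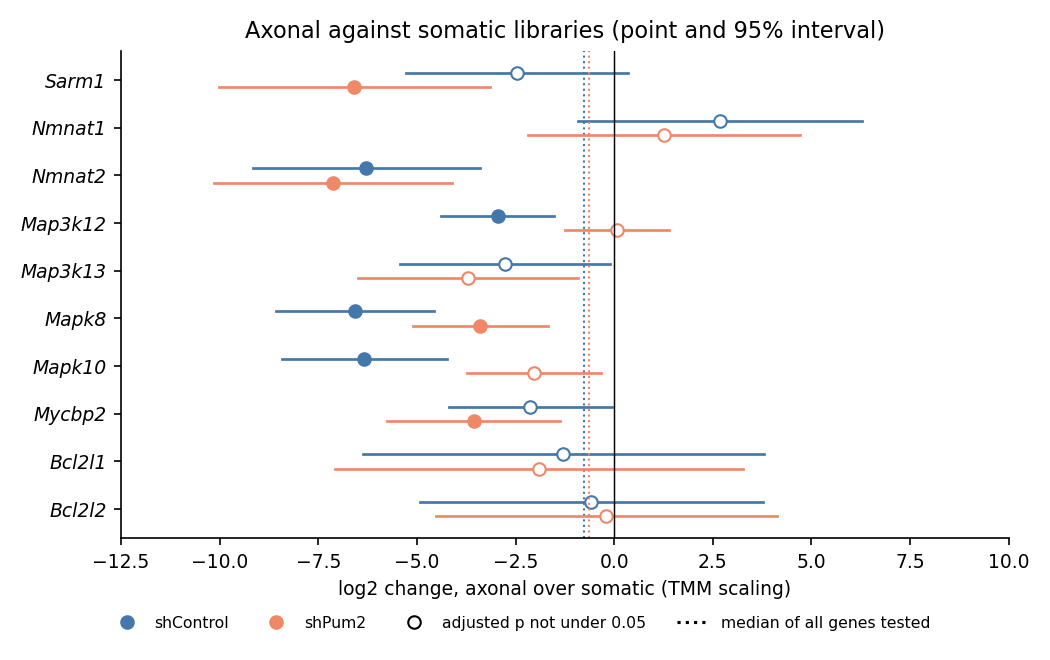
Log2 change of axonal over somatic libraries for each gene with shControl (blue) and shPum2 (orange), as a point with its 95% interval from the edgeR fit of all 8 libraries. Filled points passed an adjusted p of 0.05, and dotted lines mark the medians of all genes tested, -0.76 and -0.64. Nmnat2 and Mapk8 are filled with both hairpins. Nmnat1 is the gene with a point above 0 in both, and its intervals include 0.

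In CPM, 9 of 10 members were lower in both axonal libraries than in both somatic libraries with shControl, where 68.7% of genes tested were. The same number was lower with shPum2, where 69.3% of genes were, and Nmnat1 was the exception in both. The called members depended on single libraries. Without either somatic shControl library no gene at all passed in the shControl comparison, and without either somatic shPum2 library the 2 JNK genes were the members that still passed. In the shPum2 comparison no member passed without any 1 of the 4 somatic libraries. There Mapk8 and Nmnat2 still passed without axonal shPum2 replicate 2. Without axonal shPum2 replicate 1, Sarm1 and Mycbp2 lost their calls, Map3k13 and Mapk10 gained them, and Nmnat1 turned to -2.67 and passed (adjusted p = 0.0496, edgeR quasi-likelihood test, Benjamini-Hochberg adjustment). Sarm1 gained a call in the shControl comparison without axonal shControl replicate 1, and Mycbp2 without replicate 2. Nmnat1 and Map3k13 gained calls there without either axonal shPum2 library, and Map3k13 without axonal shControl replicate 1.

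Axonal against somatic differences moved with transcript length across all genes. Among genes of 63 to 1494 bases the median log2 difference was 1.25 with shControl and 1.08 with shPum2, and among those of 3326 to 23521 bases it was -2.37 and -2.0. Sarm1, Map3k12, Map3k13, Mapk8, Mycbp2 and Bcl2l2 belonged to this longest of 4 groups of genes by length, where 25.7% of genes were called lower with shControl and 22.9% with shPum2. Nmnat2, at 1239 bases, belonged to the shortest group, where 12.0% and 10.9% were called lower. The part of length in the members' differences was not tested.

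The third comparison asked whether axonal levels differ between the hairpins. No member passed, and neither did any of the 8519 genes tested (0.0% called), while 3.01% of genes and 0 members had an unadjusted p under 0.05. DESeq2 called 334 of 12083 genes there, none of them members. Nmnat2 and Map3k13 fell below the expression filter, and 8 members were tested. Of the libraries, those of Map3k12, Mapk8 and Mapk10 were both higher with shPum2 and those of Sarm1 both lower, where 15.8% of genes were higher and 12.0% lower without overlap. Map3k12 had 10.4 and 5.62 CPM with shControl, against 57.6 and 58.3 CPM with shPum2. Its log2 difference was 2.75 (SE 1.43, 95% interval -0.53 to 6.03). That of Mapk8, from 0.342 and 0.665 to 4.21 and 4.84 CPM, was 3.07 (SE 2.25, 95% interval -2.07 to 8.22). Mapk10 went from 0.599 and 0.739 to 24.7 and 5.21 CPM with a log2 difference of 4.19 (SE 2.55, 95% interval -1.64 to 10.03). These 3 are described together because their libraries did not overlap, and the interval of each includes 0. Map3k13, of the same branch, was below the filter.

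For Sarm1 the axonal log2 difference was -4.28 (SE 2.72, 95% interval -10.52 to 1.95), and it was -1.14 without axonal shControl replicate 1, the library with 217 counts. Mycbp2 had a log2 difference of -1.53 (95% interval -5.83 to 2.76) and Nmnat1 of -1.27 (95% interval -6.02 to 3.48). Bcl2l1, at -0.64 (95% interval -5.99 to 4.70), and Bcl2l2, at 0.14 (95% interval -4.38 to 4.66), changed sign when single libraries were left out. All 8 adjusted p-values were 0.9993 (edgeR quasi-likelihood test, Benjamini-Hochberg adjustment). Without the expression filter Nmnat2 had a log2 difference of -0.98 (SE 3.17) and Map3k13 of -0.90 (SE 3.22), both with an adjusted p of 0.9997. In axonal shPum2, macrophage and blood markers summed to 1630 and 82.3 CPM and fibroblast markers to 730 and 69.2 CPM, with replicate 1 higher in both. Nmnat1, Mapk10 and Bcl2l1 were likewise higher in that replicate, Bcl2l2 was lower, and Map3k12 and Mapk8 had close replicates.

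In the authors' deposited table for axons, Mapk10 had a log2 fold change of 3.57 with an unadjusted p of 0.0215 and an adjusted p of 0.221. The authors' deposited table gave Sarm1 as -3.62 (unadjusted p of 0.0315, adjusted p of 0.268), Map3k12 as 2.55 (0.0471 and 0.346) and Mapk8 as 2.52 (0.168 and 0.755). Neither Nmnat2 nor Map3k13 has an adjusted p in the authors' deposited table for axons. In the authors' deposited table for cell bodies the members' log2 fold changes ran from -0.15 for Map3k12 to 0.06 for Nmnat1.

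The difference between the axonal and the somatic knockdown effects was tested as an interaction, in a fit that gives both compartments 1 spread per gene. The common coefficient of variation was 23.5% in the somatic fit, 124.6% in the axonal fit and 91.1% in this one. The SE was below that of the axonal knockdown for Mapk10 (1.02 against 2.55) and Sarm1 (1.66 against 2.72). The same held for Map3k12 (0.80 against 1.43) and Mapk8 (0.96 against 2.25). For these 4 genes the p-values below may thus be too small. For Bcl2l1 and Bcl2l2 the SE was above it. No gene of 12339 passed (0.0% called), and 964 genes, or 7.81%, had an unadjusted p under 0.05. Of the members, 4 did. Mapk10 had an interaction of 4.30 on the log2 scale (SE 1.02, unadjusted p = 0.00459, adjusted p = 0.343, edgeR quasi-likelihood test, Benjamini-Hochberg adjustment). Map3k12 had 3.01 (SE 0.80, adjusted p = 0.403), Mapk8 had 3.18 (SE 0.96, adjusted p = 0.496) and Sarm1 had -4.13 (SE 1.66, adjusted p = 0.573) in the same test. Without axonal shControl replicate 1 that of Sarm1 was -1.0. The 3 positive ones were the same genes that had both axonal shPum2 libraries above both axonal shControl libraries, and the interaction rests on those same libraries. DESeq2 called 631 of 15051 genes and 3 of 10 members. These were Mapk10 (4.17, adjusted p = 0.000429), Map3k12 (3.08, adjusted p = 0.0227) and Mapk8 (3.21, adjusted p = 0.0489). Among the edgeR settings, those leaving out a library included, no member passed. The adjusted p of Mapk10 was lowest, at 0.0506, without axonal shPum2 replicate 2.

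Transcripts of the members were looked at where the files list several. Mapk10 has 3, of which a pair of 2759 bases carried the same counts in every library and could not be told apart by the authors' counting. The remaining one, of 2786 bases, held 42.6% of the gene's counts in somatic shControl, 41.4% in somatic shPum2, 40.7% of 17 counts in axonal shControl and 9.02% in axonal shPum2. These axonal shares pool unlike libraries. The transcript had 7.0 and 0.0 counts in axonal shControl, and 33.5 and 0.0 in axonal shPum2. Of the 4 Bcl2l1 transcripts, the one of 2393 bases held 86.7% and 86.6% of somatic counts and 84.1% and 93.2% of axonal counts with shControl and shPum2. Its axonal counts came almost wholly from 1 library of each hairpin, at 0.0 and 781.7 with shControl and 605.5 and 3.3 with shPum2. Shares among such similar transcripts are estimates and were not tested.

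A wider list of 58 genes of the same pathways, 54 of them in the files, was examined next. In the axonal against somatic comparison 6 of its genes were higher and 10 lower with shControl, and 7 higher and 10 lower with shPum2. The background is the 9.41% and 18.5%, and the 8.44% and 16.2%, given above. The list's median log2 difference was -0.52 with shControl and -0.85 with shPum2, and -0.52 and -0.85 also when genes with no axonal counts were set at their bounds. With scaling by total counts 3 were higher with either hairpin, while 18 and 17 were lower. With DESeq2 size factors 6 were higher with either hairpin, while 6 and 7 were lower. Of the genes named below, Spag9, Hrk, Cd38, Klc1 and Sfpq lost their shControl calls under those factors, and Map4k4, Sfpq, Stmn2 and Tnfrsf21 their shPum2 calls. Without either somatic library of the same hairpin no gene of the list passed.

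Among DLK and JNK pathway genes, 1 of 13 was higher and 3 lower with each hairpin. Over all genes tested 9.41% were higher and 18.5% lower with shControl, and 8.44% and 16.2% with shPum2. Mapk8ip1, which encodes the JNK scaffold JIP1, had 859 and 921 CPM in somatic shControl, against 1460 and 1310 CPM in axonal shControl. It rose by 2.22 on the log2 scale (adjusted p = 0.0104), and by 2.62 with shPum2 (adjusted p = 0.00758, edgeR quasi-likelihood test, Benjamini-Hochberg adjustment). With scaling by total counts it was still called higher, by 0.64 and 1.06. In TPM, however, it was lower in axonal than in somatic shControl (366 and 354 against 509 and 537). With shPum2 its TPM overlapped (500 and 429 in axonal against 478 and 526 in somatic libraries). Its direction thus depended on the unit. In the test on counts it was called higher, where the JNK genes Mapk8 and Mapk10 were lower or did not pass. The kinase genes Tnik and Mink1, whose relatives act upstream of JNK, were lower with both hairpins, with log2 changes of -5.31 and -4.90 under shControl and of -4.25 and -4.44 under shPum2. Spag9, which encodes the scaffold JIP4, was lower with shControl (-4.03), and Map4k4 was lower with shPum2 (-2.30).

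The Bcl-2 family had 2 of 12 genes higher with each hairpin, where 9.41% and 8.44% of all genes tested were, and these were the pro-apoptotic Bad and Bax. Bad was at 75.6 and 83.1 CPM in somatic and 174 and 241 CPM in axonal shControl, a log2 change of 2.96 (adjusted p = 0.0119), and of 3.13 with shPum2 (adjusted p = 0.0118), or 1.39 and 1.53 with scaling by total counts, both still called. Bax had log2 changes of 2.14 and 1.86, and was no longer called with scaling by total counts. In TPM Bax was lower in axons, at 118 and 90.5 against 166 and 159 with shControl and 129 and 89.7 against 218 and 170 with shPum2. Bad overlapped in TPM with shControl (143 and 216 against 148 and 161) and was higher with shPum2 (191 and 200 against 154 and 152). The part of transcript length in these calls was not tested. The anti-apoptotic Bcl2 was lower in both, with 3 counts over the axonal shControl libraries and 5 over the axonal shPum2 libraries against 235 to 312 in each somatic library. Hrk, a pro-apoptotic gene, was lower with shControl (-3.55).

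Of 12 caspase, calpain and related genes, Cycs, which encodes cytochrome c, was higher in axons with both hairpins. It had 207 and 207 CPM in somatic shControl, against 799 and 731 CPM in axonal shControl, and rose by 3.47 with shControl and by 3.50 with shPum2 on the log2 scale (adjusted p = 0.00695 and 0.00758, edgeR quasi-likelihood test, Benjamini-Hochberg adjustment). With total counts both were 1.88 and still called. Diablo, an antagonist of inhibitors of apoptosis, was called higher with shControl (2.10), although its CPM overlapped between compartments, and was not called with total counts. Capn1, the gene of the calcium-dependent protease calpain-1, was called lower with both hairpins. It had 3 counts over the axonal shControl libraries and 1 over the axonal shPum2 libraries, against 717 to 936 in each somatic library.

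Among NAD genes 2 of 7 were lower with shControl and 1 with shPum2, where 18.5% and 16.2% of all genes tested were. Naprt, an enzyme of NAD synthesis from nicotinic acid, had no counts in axonal shControl and a somatic mean of 2.76 CPM, at least 23.2-fold lower by a floor of 3 counts over the group. Cd38, an NAD-consuming enzyme, had 4 counts over axonal shControl and 3 over axonal shPum2 against 62 to 100 in each somatic library, and was called lower with both. Of the 3 ligase-related genes, the deubiquitinase gene Usp9x was lower with both hairpins (-4.08 and -3.34). The ubiquitin ligase gene Ube4b was lower with shPum2 (-5.12). Skp1, an adaptor of ubiquitin ligases, was higher with shPum2 (2.15), a call that total-count scaling removed. In TPM Skp1 was lower in axons with shPum2, at 448 and 433 against 638 and 699.

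Among receptors and axon support genes, the kinesin light chain gene Klc1 was called higher with both hairpins (1.40 and 2.07) and Stmn2, an axon maintenance gene, with shPum2 (1.45). Under scaling by total counts Klc1 was at -0.18 with shControl and 0.49 with shPum2, Stmn2 was at -0.16 with shPum2, and none of these was called. In TPM both genes were lower in axons. Klc1 had 379 and 530 against 1250 and 1310 with shControl, and 713 and 689 against 1130 and 1330 with shPum2. Stmn2 had 1200 and 1460 against 3070 and 3700 with shPum2. Sfpq, an RNA-binding protein gene, was lower with both (-1.53 and -2.01). Tnfrsf21, the death receptor DR6, was lower with shPum2 (-3.88), at 3.35 and 2.79 CPM in axons against 135 and 127 CPM in cell bodies.

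**Figure D4:**
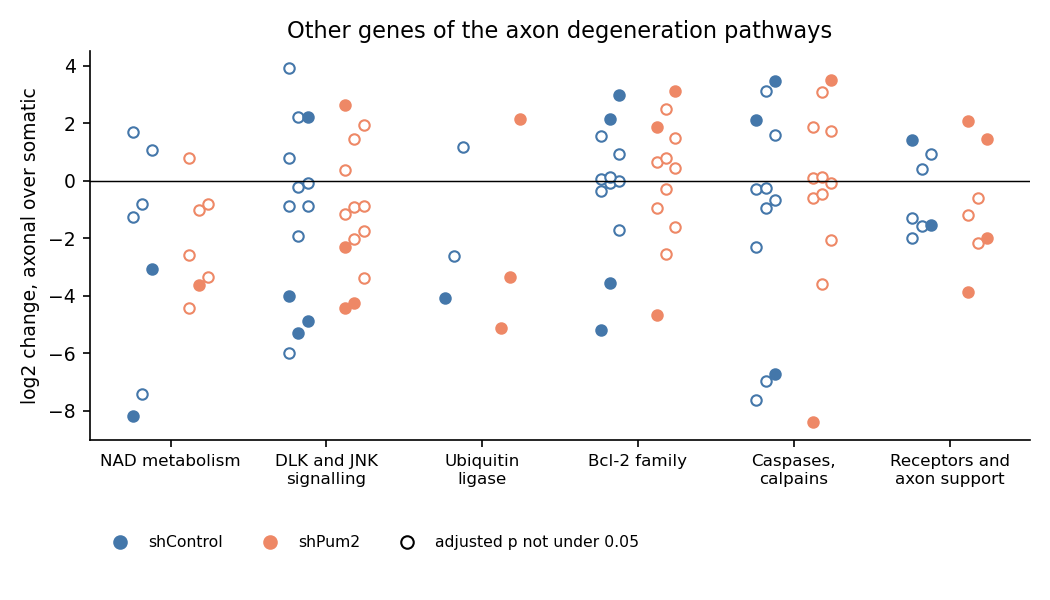
Log2 change of axonal over somatic libraries for the 54 other pathway genes, by subgroup, with shControl (blue) and shPum2 (orange). Each point is 1 gene and filled points passed an adjusted p of 0.05. Calls of both directions occur in every group except NAD metabolism, in the ligase group with shPum2 alone. Points below -6 rest on very few axonal counts, so that their position depends on the fit's prior count.

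Between the hairpins no gene of the wider list passed in cell bodies (54 tested) or in axons (43 tested), nor in the interaction. The 4 with the smallest p in cell bodies were Atf3, Map2k4, Bax and Ddit3, all above 0. Atf3, an injury-induced transcription factor gene downstream of DLK and JNK, had 5.68 and 7.51 CPM with shControl, against 12.3 and 9.95 CPM with shPum2. Both shPum2 libraries were higher, with a log2 difference of 0.73 (SE 0.24, unadjusted p = 0.0299, adjusted p = 0.9997, edgeR quasi-likelihood test, Benjamini-Hochberg adjustment). Map2k4, Bax and Ddit3 had log2 differences of 0.21, 0.24 and 0.21. In axons the 4 were Tnfrsf21 (-4.32), Nadk, an NAD kinase gene (-4.28), Skp1 (1.0) and Mapk9, the third JNK gene (-1.55). Mapk9 had 73.0 and 84.4 CPM in axonal shControl, against 49.8 and 13.9 CPM in axonal shPum2, opposite in sign to Mapk8 and Mapk10. In the interaction they were Tnfrsf21 (-4.28), Nadk (-4.26), Xiap (6.87) and Nadsyn1 (6.37). Xiap and Nadsyn1 each had at most 1 count in either axonal shControl library. In axonal shPum2 Xiap had 158 and 1 counts and Nadsyn1 98 and 1, so both values rest on replicate 1.

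Last, genes with a closely similar pattern over the 8 libraries were found for each member, by the root-mean-square difference of centred log2(CPM + 1) over 4901 candidate genes. All libraries are shared by the genes compared, so this is a description. The added 1 also flattens differences among values below 1 CPM, so a small distance says less for members with such axonal levels. Nmnat2 was closest to Plxna3 (0.11) and Mfsd6 (0.24), where the median candidate was at 2.44. Sarm1 was closest to Trrap and Cacnb1 (0.23 each, median 2.51). Map3k12 was closest to Osbp and Ppp4r3b (0.25 each, median 1.70), and Map3k13 to Prkaca (0.06) and Rab35 (0.17). Map3k13 had 0.124 to 0.770 CPM in axons and 9.60 to 12.0 CPM in cell bodies. Prkaca had 12.9 to 21.0 CPM and 141 to 162 CPM there, so the levels of these 2 genes were unlike. Mapk8 was closest to Hnrnpul2 (0.22) and Wdr47 (0.25), and Mapk10 was close to Clcn4 (0.23). Mycbp2 was closest to Ddit4 (0.29) and Khdrbs3 (0.31), and Nmnat1 to Leprot (0.31) and Mrps22 (0.35). Bcl2l1 was closest to Syngr3 (0.21) and Bicd2 (0.38), and Bcl2l2 to Phf1 (0.36) and Rab21 (0.45). Syngr3 had the same uneven axonal replicates as Bcl2l1, with 0.428 and 61.6 CPM in axonal shControl and 61.6 and 0.310 CPM in axonal shPum2.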

How the data were processed

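RNA-seq of 8 libraries, 4 somatic and 4 axonal, was analysed from the deposited files. The authors' file of each library gives estimated counts and TPM for 18321 RefSeq transcripts, per the file headers. kallisto, DESeq2 and the build Rnor_6.0 are named in the submitters' processing notes, without versions. The authors' 2 deposited comparison tables give log2 fold changes with standard errors, p-values, a test statistic (a score) and the mean normalised signal per gene, per the file headers. The signal and score were not used in any test.

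Gene symbols were looked up for each transcript in the RefSeq table for GRCr8, which served for names and neighbours alone. Of the 18321, 17359 (94.7%) matched. Estimated counts were summed per gene and rounded. CPM was taken over each library's total. edgeR 4.0.16 in R 4.3.3 gave the tests (quasi-likelihood, TMM, its expression filter, Benjamini-Hochberg over all genes tested, threshold 0.05). Knockdown was tested within each compartment, and compartment and interaction in a fit of all 8 libraries. Alternatives were DESeq2 1.42.0, other scalings, no filter, a replicate block, other sample sets and each library left out. The scripts were tested on simulated data. Floors (3 counts) and the counting error cover sampling of reads alone.

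The members and lists were chosen with earlier results of these data known. All members were named, with Pum2. Of the wider list, up to 4 genes per subgroup past the threshold with the smallest p were named in a compartment comparison, and the 4 with the smallest p in a knockdown comparison or the interaction. For likeness, the 2 nearest genes with a mean log2(CPM + 1) of at least 4 were named, except 1 that is not reported here.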

Additional observations from a re-analysis of the deposited data

How the results depend on the processing

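With the replicate number as a block in each compartment, both compartment comparisons refer to the levels of replicate 1, not to the mean of the replicates. There 0 genes, 0 members and 0 wider-list genes passed, and Bcl2l2 with shControl went from -0.58 to -5.34. This setting is therefore not a check of the same axonal against somatic differences. In the knockdown comparisons and the interaction, calls did not move with the block. The labels do not say that numbers pair samples. Same-numbered libraries deviated together at 0.65 in cell bodies and 0.09 in axons. Scaling by total counts gave 7 members with shControl. DESeq2 called 334 genes in the axonal knockdown, 631 genes and 3 members in the interaction and 2 genes in the somatic knockdown. Without the expression filter 6 genes passed in the axonal knockdown. With all 8 libraries in a single fit 0 genes passed in the somatic knockdown. With the 4 shPum2 libraries alone 11 wider-list genes passed. Leaving out each library in turn, where the lone library of a group is assumed to vary like the others, gave 0 to 1 genes in the somatic knockdown, 0 to 31 in the axonal knockdown, and 0 to 712 genes with 0 to 3 of the wider list in the interaction. It gave 0 to 5540 genes, 0 to 6 members and 0 to 29 wider-list genes in the shControl compartment comparison, and 0 to 4862, 0 to 6 and 0 to 30 in the shPum2 one.

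Some log2 differences changed sign. Bcl2l2 was at -0.00018 in the axonal knockdown with total counts and at 0.28 in the shPum2 compartment comparison with DESeq2 and with its size factors, and Map3k12 was at -1.50 there with total counts. Leaving out libraries gave ranges across 0. In the somatic knockdown these were -0.12 to 0.04 for Bcl2l1, -0.15 to 0.24 for Map3k13, -0.25 to 0.06 for Mapk10, -0.12 to 0.06 for Mapk8 and -0.08 to 0.02 for Mycbp2. In the axonal knockdown they were -6.57 to 5.56 for Bcl2l1, -3.40 to 5.62 for Bcl2l2 and -2.28 to 0.46 for Mycbp2. In the interaction they were -6.35 to 5.63 for Bcl2l1, -3.40 to 5.80 for Bcl2l2, -1.63 to 0.22 for Map3k13, -2.23 to 0.53 for Mycbp2 and -1.67 to 1.33 for Nmnat2. In the compartment comparisons they were -6.02 to 0.48 for Bcl2l2 with shControl and, with shPum2, -3.90 to 0.92 for Bcl2l2, -0.37 to 0.54 for Map3k12 and -2.67 to 2.17 for Nmnat1. The cause of these moves was not tested. Axonal counts of 1 to 10 per library for Nmnat2 and Map3k13 limit what could be detected for them.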
